A study of Mus musculus with 6 samples.

Results

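Small nucleolar RNAs (snoRNAs) were compared between Rb1L/L and Rb1+/+ mouse embryonic fibroblasts (MEFs), primary cells cultured from embryos. The members were the genes whose single annotated symbol starts with Snord or Snora followed by a digit, each read from its brightest transcript cluster. They came to 51 of 19939 named genes, 31 of them box C/D (Snord) and 20 box H/ACA (Snora). Expression had been measured on 6 Affymetrix arrays, from 3 Rb1L/L and 3 Rb1+/+ cultures of E13.5 embryos. The cultures were proliferating at passage 4, and their total RNA was taken with TRIzol. Rb1 encodes the retinoblastoma protein pRb, and the L allele alters its binding cleft for partners that carry an LXCXE motif. The Rb1L/L cultures are homozygous for it by their label. Nothing in the labels says whether the cultures came from separate litters, so the p-values measure the spread between these cultures.

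snoRNAs are short non-coding RNAs that guide the chemical modification of ribosomal RNA. Box C/D snoRNAs direct ribose methylation with the proteins fibrillarin, Nop56, Nop58 and Snu13, and box H/ACA snoRNAs direct pseudouridine formation with dyskerin, Nhp2, Nop10 and Gar1. A few, such as U3, U8, U14, U17 and U22, are needed for cutting the ribosomal RNA precursor. In mammals most lie in introns of host genes, many of which encode ribosomal proteins or are non-coding RNAs whose known product is the snoRNA, and they are released from the spliced intron.

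Values are levels on a log2 scale made with RMA, where a difference of 1 is a doubling. Testing was limited to genes averaging more than 5.08 over the 6 arrays, a limit that 90% of 1194 olfactory or vomeronasal receptor genes, taken as silent here, did not pass. This left 15462 genes, among them 27 Snord and all 20 Snora members. No tested member passed only through its Rb1L/L level, since none had an Rb1+/+ mean under that limit. Pearson correlations between arrays of the same genotype were 0.995 to 0.996, and those across genotypes 0.987 to 0.993. Of the 12 fibroblast markers, all were above the limit, and their summed linear signal was 46842 to 47610 on Rb1L/L and 49315 to 51902 on Rb1+/+ arrays.

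snoRNAs of both classes were higher in Rb1L/L cultures. Among box C/D members 16 of 27 rose and none fell, and among box H/ACA members 9 of 20 rose and none fell, by limma with Benjamini-Hochberg adjustment over all genes at a threshold of 0.05. Over all tested genes 7.10% were called higher and 5.08% lower. The median log2 fold change, Rb1L/L minus Rb1+/+, was 0.55 for Snord and 0.39 for Snora members, against -0.02 for all tested genes. A log2 fold change above 0 was found for 24 of 27 Snord and 18 of 20 Snora members, and for 43.6% of all tested genes. At an unadjusted p under 0.05, 34 of the 47 were higher, as were 14.4% of all genes. Of the 47 tested members 17 were at least 1.5-fold higher, as were 1.32% of all genes.

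**Figure D1:**
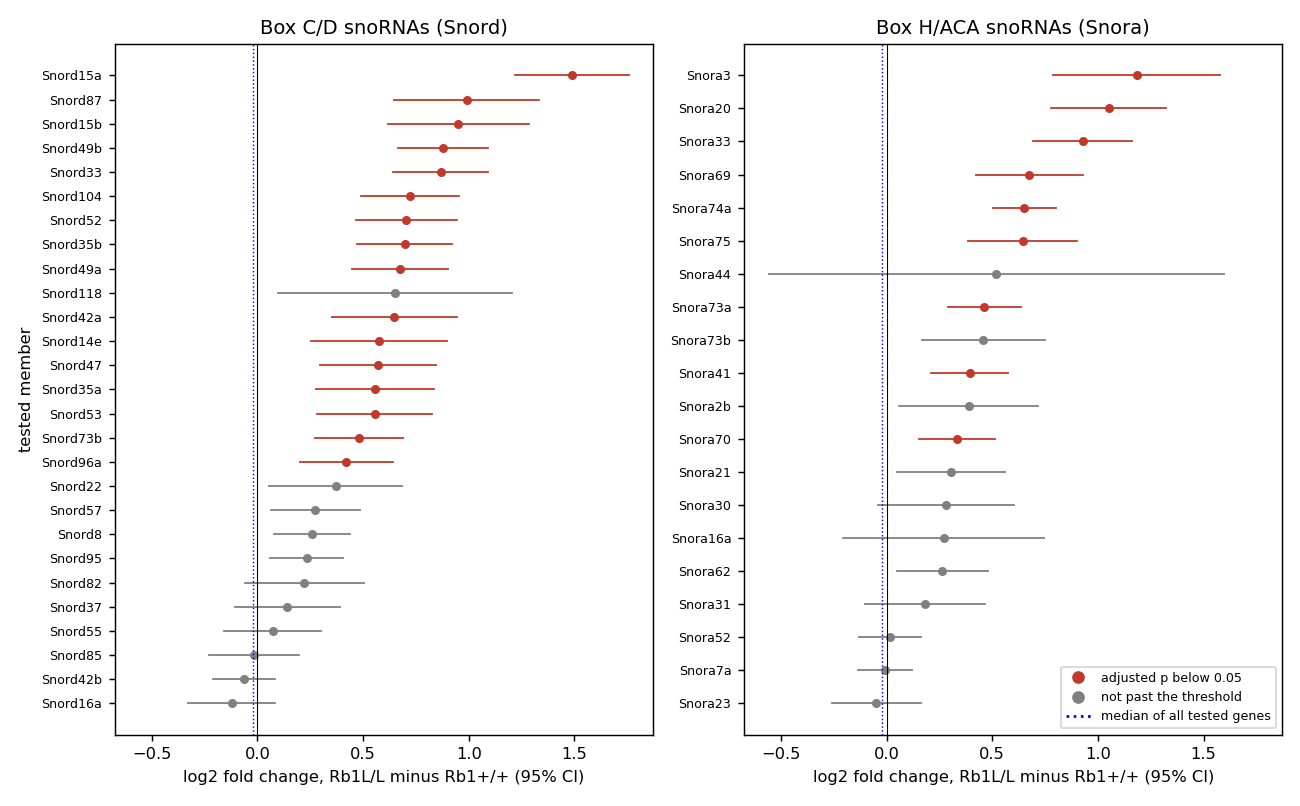
Log2 fold change of each tested snoRNA (points, Rb1L/L minus Rb1+/+) with its 95% confidence interval from limma (lines), box C/D on the left and box H/ACA on the right, red where the adjusted p was below 0.05. Of the Snord members 16 of 27 and of the Snora members 9 of 20 are red, all of them right of 0, and the dotted line marks the median of all tested genes at -0.02.

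With the replicate number as a block, 18 Snord and 12 Snora members rose and none fell, where 7.99% of all genes were higher and 6.45% lower. The members gained were Snord118 (adjusted p = 0.0161 against 0.117 without the block), Snord22 (0.0339 against 0.117), Snora73b (0.0153 against 0.0522), Snora21 (0.0286 against 0.112) and Snora16a (0.0453 against 0.436), by limma. The labels do not say that cultures of the same number were paired, so arrays were matched by their number alone. Within number pair 1 the Rb1L/L array was above the Rb1+/+ array for 26 of 27 Snord and 19 of 20 Snora members. In pair 2 this held for 25 and 17 members, and in pair 3 for 22 and 17, while over all tested genes the share was 45.4% to 46.4%.

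The size of the counts rested on single cultures more than the medians did. Without Rb1L/L replicate 1 the Snord count was 10, and without Rb1L/L replicate 2 it was 9, where 2.74% and 2.82% of all genes were higher. Without both arrays numbered 1, 7 Snord members and 1 Snora member rose, where 0.563% of all genes were higher. Without both arrays numbered 2 the counts were 10 and 5 (2.07% of all genes), and without both numbered 3 they were 11 and 4 (2.26%). The Snord median stayed between 0.42 and 0.66 and the Snora median between 0.30 and 0.46 in all these fits, and no member was called lower in any of them.

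The arrays were not alike within a genotype. The median deviation of Snord members from their own 6-array mean was 0.24, 0.25 and 0.25 on Rb1L/L replicates 1, 2 and 3, against -0.53, -0.20 and -0.14 on Rb1+/+ replicates 1, 2 and 3. For Snora members it was 0.10, 0.14 and 0.35 on the Rb1L/L arrays, against -0.35, -0.15 and -0.08 on the Rb1+/+ arrays. All Rb1L/L arrays thus lay above all Rb1+/+ arrays in both classes. Rb1+/+ replicate 1 was the lowest Rb1+/+ array for 37 of 47 members (78.7%), as it was for 33.2% of all genes. Rb1L/L replicate 3 was the highest Rb1L/L array for 30 of 47 members (63.8%), as it was for 34.4% of all genes.

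**Figure D2:**
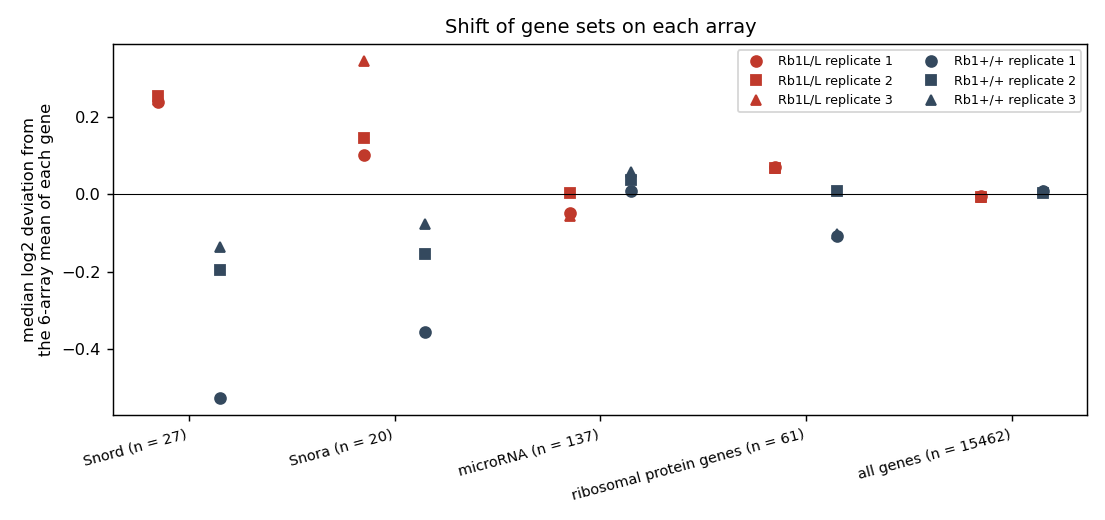
Median log2 deviation of each gene set from the 6-array mean of its genes (y axis), per array, with Rb1L/L replicates in red on the left and Rb1+/+ replicates in dark blue on the right of each set. Snord members lie at 0.24 to 0.25 on Rb1L/L arrays and at -0.53 to -0.14 on Rb1+/+ arrays, while microRNA genes and all genes lie within 0.06 of 0 on every array.

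The box C/D RNA with the largest change was Snord15a, which lies in an intron of the ribosomal protein gene Rps3. Its log2 values were 7.27, 7.46 and 7.69 in Rb1L/L cultures and 5.94, 6.16 and 5.85 in Rb1+/+ cultures. The groups were more than 1 log2 unit apart, and the gene was 2.81-fold higher (log2 fold change 1.49 ± 0.12 SE, limma adjusted p = 0.00146). Snord15b, in another intron of Rps3, had 9.004, 8.82 and 9.33 in Rb1L/L cultures and 7.85, 8.23 and 8.23 in Rb1+/+ cultures, and rose 1.93-fold (0.95 ± 0.15, limma adjusted p = 0.0081).

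Snord87, held by the non-coding host gene Snhg6, had log2 values of 7.16, 7.23 and 7.11 in Rb1L/L cultures and 5.78, 6.33 and 6.41 in Rb1+/+ cultures. It rose 1.99-fold (0.99 ± 0.15 SE, limma adjusted p = 0.00787) without overlap, and Rb1+/+ replicate 1 was the lowest array. Snord49b and Snord49a, both in the non-coding gene 2410006H16Rik, rose by 0.88 ± 0.09 and 0.68 ± 0.10 on the log2 scale (SE; limma adjusted p = 0.00295 and 0.00714). Snord49b had 11.94, 12.08 and 12.18 in Rb1L/L cultures and 11.03, 11.33 and 11.20 in Rb1+/+ cultures. All Rb1L/L arrays lay above all Rb1+/+ arrays.

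Snord33 and Snord35a lie in introns of Rpl13a and are known from rodent cells for a role in the response to lipid overload. Snord33 had log2 values of 8.80, 8.79 and 8.82 in Rb1L/L cultures and 7.70, 8.08 and 8.03 in Rb1+/+ cultures, a narrow Rb1L/L group clear of the other (0.87 ± 0.10 SE, limma adjusted p = 0.00319). Snord35a rose by 0.55 ± 0.12 (limma adjusted p = 0.0255), and Snord35b by 0.70 ± 0.10 (limma adjusted p = 0.00621). Snord104 (0.72) and Snord52 (0.70), in the non-coding genes Gm36220 and 1110038B12Rik, complete the 8 Snord members of smallest p with Snord15a, Snord49b, Snord33, Snord35b, Snord49a and Snord87.

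The other Snord members that rose, named so that every member is accounted for, were Snord42a (0.65), Snord14e (0.58), Snord47 (0.57), Snord53 (0.55), Snord73b (0.48) and Snord96a (0.42). Snord14e belongs to the U14 RNAs, which are needed for making the small ribosomal subunit, and lies in the chaperone gene Hspa8. Its log2 values were 9.28, 9.31 and 9.37 in Rb1L/L cultures and 8.49, 8.65 and 9.10 in Rb1+/+ cultures. Of the 16 called Snord members, 9 were called in each of the 6 fits without 1 array. Snord14e and Snord47 were called in 1 of them, Snord53 and Snord96a in 2, Snord35a in 3, Snord42a in 4 and Snord73b in 5.

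Among the box H/ACA RNAs the largest change was that of Snora3, in an intron of the ribosomal protein gene Rpl27a. Its log2 values were 10.24, 10.29 and 10.58 in Rb1L/L cultures and 9.02, 9.61 and 8.93 in Rb1+/+ cultures. It rose 2.27-fold (log2 fold change 1.18 ± 0.17 SE, limma adjusted p = 0.00698). A slightly dimmer cluster of the same symbol gave 1.18 ± 0.17 as well. Its values were nearly the same as those of the first on every array, so it cannot count as a separate measurement. Snora20, in the chaperonin gene Tcp1, had 6.58, 6.80 and 6.58 in Rb1L/L cultures and 5.52, 5.87 and 5.42 in Rb1+/+ cultures, and rose 2.07-fold (1.05 ± 0.12, limma adjusted p = 0.00319).

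Snora33, in Rps12, rose by 0.93 ± 0.10 on the log2 scale (SE; limma adjusted p = 0.003). Snora69, in the X-linked gene Rpl39, rose by 0.68 ± 0.11 and Snora75, in the nucleolin gene Ncl, by 0.64 ± 0.11. Snora74a (U19), in Snhg4, had log2 values of 8.80, 8.67 and 8.79 in Rb1L/L cultures and 8.07, 8.18 and 8.06 in Rb1+/+ cultures, the smallest p of its class (0.65 ± 0.07 SE, limma adjusted p = 0.00265). Snora41 (0.39), in the elongation factor gene Eef1b2, and Snora70 (0.33), in Rpl10, were the smallest rises called. They held in 4 and 1 of the 6 fits without 1 array, while the other 7 Snora calls held in all 6.

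**Figure D3:**
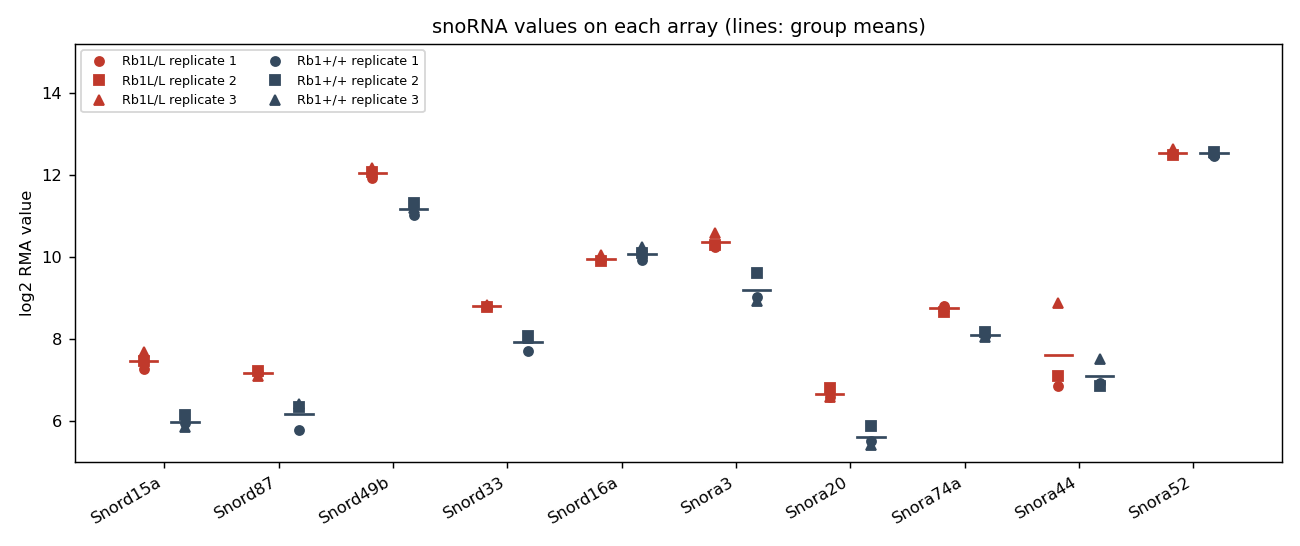
Log2 RMA values (y axis) of 10 snoRNAs on each array, Rb1L/L in red to the left and Rb1+/+ in dark blue to the right, with lines at the group means. Snord15a, Snord87, Snord49b, Snord33, Snora3, Snora20 and Snora74a do not overlap between genotypes, Snord16a and Snora52 do, and Snora44 stands at 8.88 on Rb1L/L replicate 3 alone.

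Among the members known from precursor cutting, Snord14e (U14) and Snora73a (U17) rose. In the chosen fit, which has no block, Snora73b (U17), Snord118 (U8) and Snord22 (U22) did not pass. Snora73b also passed under some other settings without a block, given below. Snora73a and Snora73b are the U17 RNAs of the host Snhg3. Snora73a had log2 values of 9.65, 9.79 and 9.91 in Rb1L/L cultures and 9.31, 9.28 and 9.37 in Rb1+/+ cultures and rose by 0.46 ± 0.08 (SE, limma adjusted p = 0.0101). Snora73b had the same log2 fold change, 0.46, with a wider error of 0.13 (limma adjusted p = 0.0522). Its values were 9.86, 9.90 and 10.19 in Rb1L/L cultures and 9.27, 9.65 and 9.67 in Rb1+/+ cultures, without overlap.

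Snord118 (U8), needed for maturation of the large subunit RNA, is the 1 member that lies in no host gene of the reference. Its log2 values were 8.99, 8.99 and 9.57 in Rb1L/L cultures and 7.99, 8.66 and 8.94 in Rb1+/+ cultures. The groups did not overlap by a margin of 0.048, and the difference of 0.65 ± 0.24 (SE) missed the threshold without the block. Both of its clusters hold identical values. Snord22 (U22), in Snhg1, had a log2 fold change of 0.37 ± 0.14. Snora62 (E2), in Rpsa, had 0.26 ± 0.09 (limma adjusted p = 0.106). U3 is named Rnu3a on the array and so is no member by the rule; it rose by 0.55 (limma adjusted p = 0.0259), with 7.23, 7.53 and 7.71 in Rb1L/L cultures and 7.08, 6.91 and 6.84 in Rb1+/+ cultures.

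A group of members had close values in both genotypes. The log2 fold change was -0.12 for Snord16a (95% confidence interval -0.33 to 0.08), -0.06 for Snord42b (-0.21 to 0.08) and -0.02 for Snord85 (-0.23 to 0.20). It was -0.05 for Snora23 (-0.26 to 0.16), -0.01 for Snora7a (-0.14 to 0.12) and 0.02 for Snora52 (-0.13 to 0.16). Snora52, in Rplp2, had log2 values of 12.51, 12.49 and 12.64 in Rb1L/L cultures and 12.48, 12.57 and 12.55 in Rb1+/+ cultures. The groups overlapped for all 6, and the upper limits of these intervals lie under the Snord median of 0.55 and the Snora median of 0.39. These members were picked for their low estimates and are part of those medians. The comparison is therefore a description and does not set them apart as a separate group.

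The remaining members were above 0 without passing. They were Snord57 (0.27), Snord8 (0.26), Snord95 (0.23), Snord82 (0.22), Snord37 (0.14) and Snord55 (0.07) in the first class. In the second they were Snora44 (0.52), Snora2b (0.39), Snora21 (0.31), Snora30 (0.28), Snora16a (0.27) and Snora31 (0.18). Snora44 had the widest spread of all members, with 6.87, 7.10 and 8.88 in Rb1L/L cultures and 6.92, 6.85 and 7.52 in Rb1+/+ cultures. Without Rb1L/L replicate 3 its log2 fold change was -0.11. Snora16a, its neighbour in Snhg12, was likewise highest on the arrays numbered 3, at 9.26 in Rb1L/L and 9.04 in Rb1+/+.

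Below the detection limit lay Snord73a, Snord38a, Snord61 and Snord58b, with means of 4.96, 3.77, 3.66 and 3.52. They were not tested, and no fold change is given for them. Snord38a had 4.09, 3.91 and 3.97 in Rb1L/L cultures and 3.65, 3.42 and 3.60 in Rb1+/+ cultures.

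The classes were set side by side on their changes, since levels of different clusters cannot be compared on an array. The share called higher was 59.3% of Snord and 45% of Snora members, beside 7.10% of all tested genes. The medians differed by 0.16. Within an array, the median deviation of Snord minus that of Snora members was 0.14, 0.11 and -0.10 on Rb1L/L replicates 1, 2 and 3, against -0.17, -0.04 and -0.06 on Rb1+/+ replicates 1, 2 and 3. Rb1L/L replicate 3 thus lay among the Rb1+/+ arrays. The ranges overlapped almost fully, from -0.12 to 1.49 in Snord and from -0.05 to 1.18 in Snora members. The difference between the classes was not tested, because members were chosen with results known. Groups that did not overlap, with Rb1L/L above, were found for 21 of 27 Snord and 12 of 20 Snora members (16.2% of all genes), and none of the 47 had Rb1L/L wholly below (18.3% of all genes).

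The reference lengths ran from 45 to 148 bases in tested Snord and from 61 to 205 bases in Snora members. Spearman's rho of the log2 fold change with length was 0.22 across the 27 Snord and -0.31 across the 20 Snora members, which share their 6 arrays. On the chromosomes with at least 5 tested members, 6 of 9 rose on 7, 5 of 9 on 11, 4 of 5 on 1 and 1 of 6 on 4. Of all tested members 53.2% rose, beside 7.10% of all tested genes. Chromosomes were not compared by a test.

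Because most snoRNAs are cut from introns, each was set beside the gene whose span in the reference holds it; where spans nested, the shortest was taken, and strand was not used. A host was found for 50 of the 51 members, 40 hosts in all. Members in non-coding hosts rose in 8 of 13 cases with a median log2 fold change of 0.57, and those in ribosomal protein genes in 11 of 18 with a median of 0.52. Members in other protein-coding genes rose in 6 of 15 cases with a median of 0.28, beside -0.02 and 7.10% called higher over all genes.

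Where a host could be read, most members changed more than it did. Among the non-coding hosts of members only Gas5 had a cluster of its own. The comparison thus covers almost only protein-coding hosts. Of 23 hosts tested through their brightest cluster, 4 rose and none fell, and the median log2 fold change was 0.07. For ribosomal protein genes the brightest cluster often lies at another locus. The brightest host cluster within 30 cluster numbers of the snoRNA was therefore also used, a choice made after seeing the data. By that reading 8 of 26 hosts rose and none fell, where 7.84% of all named clusters were higher, with a median of 0.08 and a range from -0.17 to 0.46. The member's log2 fold change was above that of its host in 23 of 28 cases, with a median difference of 0.29. Of the 16 called members with such a host, 10 had a host that did not pass and 6 a host that rose.

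Rps3, which encodes a small subunit protein and holds Snord15a and Snord15b, had log2 values of 11.95, 11.87 and 11.92 in Rb1L/L cultures and 11.57, 11.67 and 11.29 in Rb1+/+ cultures. It rose by 0.40 ± 0.10 (SE, limma adjusted p = 0.0329 among all named clusters), beside 1.49 and 0.95 for its snoRNAs. Tcp1, the host of Snora20, had 11.48, 11.40 and 11.48 in Rb1L/L cultures and 11.38, 11.50 and 11.45 in Rb1+/+ cultures, with a log2 fold change of 0.01 ± 0.06 beside 1.05 for Snora20. Rpl27a rose by 0.27 ± 0.06 beside Snora3 at 1.18, and Rps12 by 0.37 ± 0.08 beside Snora33 at 0.93. Read from their brightest clusters, Rpl27a (0.24, limma adjusted p = 0.0668) and Rps12 (0.35, limma adjusted p = 0.0685) did not pass.

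Some hosts of called members had a log2 fold change below 0, though none of them passed the threshold. Rpl39 had a log2 fold change of -0.17 ± 0.06 (SE, limma adjusted p = 0.0918, on a cluster shared with Gm32211), while its Snora69 rose by 0.68. Ncl had -0.08 ± 0.08 (limma adjusted p = 0.523), while its Snora75 rose by 0.64. There were also hosts that rose beside a snoRNA that did not pass. Rplp2 rose by 0.36 ± 0.07 (limma adjusted p = 0.0187) beside Snora52 at 0.02. Its cluster had 6.99, 7.02 and 7.16 in Rb1L/L cultures and 6.70, 6.78 and 6.60 in Rb1+/+ cultures. That is dimmer than the clusters read for the other ribosomal protein hosts. Rpsa rose by 0.46 ± 0.07 (limma adjusted p = 0.00787) beside Snora62 at 0.26. Read from its brightest cluster, Rpsa had 0.21 (limma adjusted p = 0.0731), which is below Snora62.

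**Figure D4:**
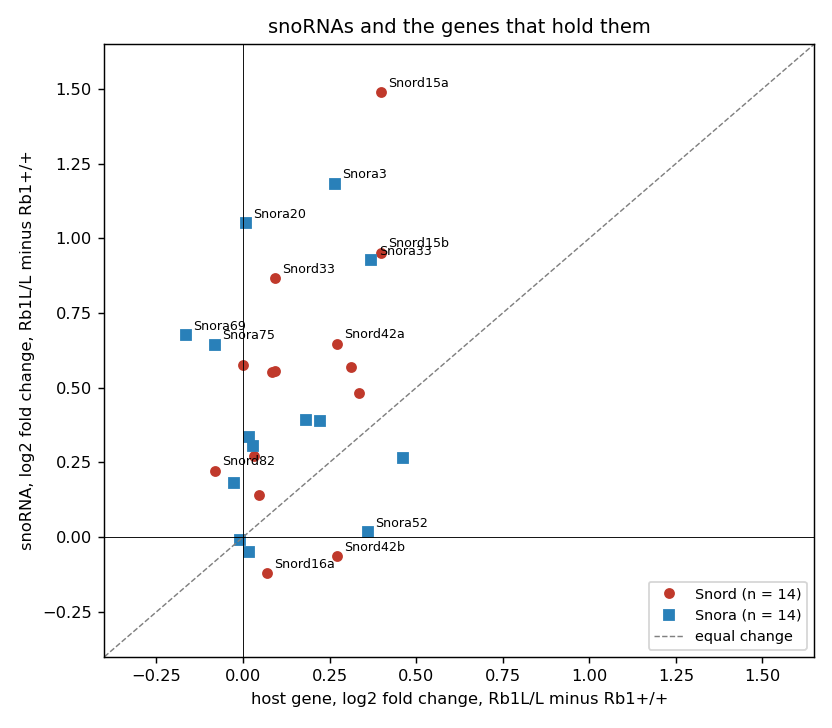
Log2 fold change (Rb1L/L minus Rb1+/+) of 28 tested snoRNAs (y axis) against that of the host gene (x axis), with Snord as red circles and Snora as blue squares. The host was read from its brightest cluster within 30 cluster numbers of the snoRNA. Points above the dashed line of equal change, 23 of 28, have a larger snoRNA change than host change, and hosts lie between -0.17 and 0.46.

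Members of 1 host were set against each other. Both tested members were available for 8 hosts, and for each the change of one minus the change of the other was tested by an exact two-sided permutation over the 6 arrays, which cannot go below p = 0.10, so no pair could pass a threshold of 0.05. Snord42a rose by 0.65 while Snord42b stood at -0.06, both in Rpl23a, a difference of 0.71 (exact permutation p = 0.1, 0.2 after Benjamini-Hochberg adjustment over 8 hosts). The same smallest p was reached by Snord15a against Snord15b (difference 0.54), Snord33 against Snord35a (0.31) and Snord49b against Snord49a (0.20). Snora73a and Snora73b of Snhg3 differed by 0.01 (exact permutation p = 0.9).

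The start regions of host genes are printed here to show what hosts of strongly and weakly changed members have in common. Many snoRNA hosts are known to begin their transcripts with a pyrimidine tract, which ties translation to growth signals. Sequences are from RefSeq (GRCm38.p6), on the strand of the gene, from 30 bases before to 50 bases after the annotated start. Capitals mark runs of 6 or more C or T anywhere in this window. A marked run therefore need not begin the transcript, and the only one of Rps3 lies before the annotated start. Of the 40 hosts, 30 were in the table. Hosts of the most changed members come first, then 2 non-coding hosts, then hosts of the members with the lowest values.
Rps3, chr7:99483660-99483739, minus strand: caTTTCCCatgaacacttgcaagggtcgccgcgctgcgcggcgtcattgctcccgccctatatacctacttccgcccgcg
Rpl27a, chr7:109519165-109519244, plus strand: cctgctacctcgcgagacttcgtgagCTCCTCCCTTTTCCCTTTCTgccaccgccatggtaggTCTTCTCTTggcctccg
Tcp1, chr17:12916299-12916378, plus strand: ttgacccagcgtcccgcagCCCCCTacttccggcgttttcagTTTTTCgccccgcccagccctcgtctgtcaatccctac
Rps12, chr10:23787160-23787239, minus strand: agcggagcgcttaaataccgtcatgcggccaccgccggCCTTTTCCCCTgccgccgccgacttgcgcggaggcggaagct
2410006H16Rik, chr11:62602847-62602926, plus strand: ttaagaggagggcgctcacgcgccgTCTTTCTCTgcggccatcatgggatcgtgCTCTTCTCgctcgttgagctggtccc
Snhg1, chr19:8723457-8723536, plus strand: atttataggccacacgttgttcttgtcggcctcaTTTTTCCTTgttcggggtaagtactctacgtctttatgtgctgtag
Rpl4, chr9:64173357-64173436, plus strand: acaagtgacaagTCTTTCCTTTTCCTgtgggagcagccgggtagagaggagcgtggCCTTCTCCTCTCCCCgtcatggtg
Ipo7, chr7:110018285-110018364, plus strand: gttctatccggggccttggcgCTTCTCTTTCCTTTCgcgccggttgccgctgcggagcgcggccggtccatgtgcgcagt
Rplp2, chr7:141447621-141447700, plus strand: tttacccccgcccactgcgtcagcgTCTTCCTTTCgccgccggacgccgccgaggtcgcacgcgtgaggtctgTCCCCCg
Eef2, chr10:81176601-81176680, plus strand: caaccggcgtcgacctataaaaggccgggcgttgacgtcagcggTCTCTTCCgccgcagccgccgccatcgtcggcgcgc

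A pyrimidine run lay in this window in 26 of the 30 hosts (86.7%), beside 63.1% of the 27025 genes in the table. All 10 windows printed hold one, those of Rpl4, Ipo7, Rplp2 and Eef2 included, whose members Snord16a, Snora23, Snora52 and Snord37 did not pass. The E2F-type letters TTTCCCGC or TTTGGCGC, on either strand of the 300 bases around the start, were found in 3 of the 30 hosts (10%) and in 1.80% of all genes in the table. These matches describe letters only.

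Of the 8 core protein partners of the snoRNAs 3 rose and none fell, beside 7.10% higher and 5.08% lower among all tested genes, and all 8 had a log2 fold change above 0. Of the 4 box C/D core proteins, fibrillarin (Fbl), the methyltransferase, rose by 0.36 ± 0.07 (SE, limma adjusted p = 0.016), and Nop58 (0.19), Snu13 (0.12) and Nop56 (0.03) did not pass. Of the 4 box H/ACA core proteins, Gar1 rose by 0.56 ± 0.12 (limma adjusted p = 0.027) and Nhp2 by 0.28 ± 0.06 (limma adjusted p = 0.0199), while Nop10 (0.13) and the pseudouridine synthase gene Dkc1 (0.08) did not pass. Gar1 had log2 values of 9.47, 9.46 and 9.10 in Rb1L/L cultures and 8.95, 8.84 and 8.58 in Rb1+/+ cultures, with no overlap.

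Of 17 assembly and transport factors, 2 rose and 1 fell, with a median log2 fold change of 0.07; the shares of all tested genes, here and for the lists that follow, were 7.10% higher and 5.08% lower. Ruvbl1, an ATPase of the assembly machinery, rose by 0.50 ± 0.11 (SE, limma adjusted p = 0.0224), and Wrap53 by 0.31 ± 0.08. Naf1, which loads box H/ACA RNAs before Gar1 takes its place, fell, with a log2 fold change of -0.44 ± 0.06 (limma adjusted p = 0.00558). With the block Rrp9 passed too (0.22, limma adjusted p = 0.0498). The RNA polymerase I machinery transcribes the ribosomal RNA precursor. Of 19 genes listed under it, 2 rose (Polr1c, 0.27 and Taf1a, 0.30) and 1 fell (Polr1d, -0.32), with a median of 0.05. The list also held Ncl, Npm1 and Nop53, whose nucleolar proteins are not parts of the polymerase, and none of these was called. Cd3eap passed with the block (0.26, limma adjusted p = 0.0328).

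Of 9 measured non-coding host genes, Dancr (0.65) and Snhg15 (0.35) rose and none fell. The block ended the call of Snhg15 (limma adjusted p = 0.0511), and with it Snhg17 (0.34, limma adjusted p = 0.0192) passed upward and Rian (-0.23, limma adjusted p = 0.0453) downward. Gas5, the host of Snord47, had 0.31 ± 0.09 (limma adjusted p = 0.0631, and 0.0469 in the fit with the block). The mean of its 4 clusters gave 0.05 (limma adjusted p = 0.78). Of 61 cytosolic ribosomal protein genes, 16 rose (26.2%) and none fell, with a median of 0.15.

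Other small RNAs were set beside the snoRNAs. Of 137 tested microRNA genes, 7 rose (5.11%, beside 7.10% of all genes) and 2 fell, 6 with the block, and the median log2 fold change was -0.08. The RNA polymerase III products Rn7sk (0.00), Rny3 (0.11) and Rny1 (-0.05) did not pass. Rn7sk had log2 values of 13.58, 13.53 and 13.64 in Rb1L/L cultures and 13.58, 13.60 and 13.56 in Rb1+/+ cultures. Of 3 guide RNAs of Cajal bodies, Scarna17 rose by 0.36 (limma adjusted p = 0.0108), and Scarna13 (0.18) and Scarna8 (0.07) did not pass. The part of RNA quality in the snoRNA result was not tested.

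Some markers of other cell types differed between the genotypes, where 7.10% of all genes were higher and 5.08% lower. Of 8 macrophage and blood markers all were above 0, Adgre1 (0.95) and Cd14 (0.35) rose, and their summed linear signal was 2173 to 3205 on Rb1L/L and 1807 to 3043 on Rb1+/+ arrays. Of 8 tested neuron markers, Tubb3 fell, with a log2 fold change of -0.48, and the summed signal of the 11 measured was 1019 to 1649 on Rb1L/L and 1675 to 1744 on Rb1+/+ arrays, without overlap. Stmn2, the brightest of these markers and so the largest part of their linear sum, had -0.73 (limma adjusted p = 0.113). Its log2 values were 9.91, 8.60 and 9.22 in Rb1L/L cultures and 9.99, 9.98 and 9.95 in Rb1+/+ cultures. The sum without Stmn2 was not taken, so the lack of overlap cannot be read as a trait of the whole list. Of 5 tested endothelial markers Kdr rose by 0.58 (limma adjusted p = 0.00663), with a summed signal of 558 to 717 on Rb1L/L and 499 to 774 on Rb1+/+ arrays. None of the 5 tested epithelial and 6 skeletal muscle markers was called. Of 12 fibroblast markers Col3a1 (-0.33) and Lum (-0.39) fell, and Dcn (-0.31, limma adjusted p = 0.0346) with the block. Their part in the snoRNA result was not tested. In cultures of mixed cells, a change in the share of a cell type and a change in RNA per cell cannot be told apart.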

How the data were processed

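Total RNA from 6 MEF cultures was hybridised to 6 Affymetrix arrays. The authors deposited log2 values per transcript cluster; RMA and Partek are the tools named, per the submitters' processing notes, and their versions and settings are unstated. RMA removes shifts shared by most genes and compresses the changes of dim ones. The log2 values ran from 2.28 to 14.16. With 3 arrays a genotype, their number sets the precision.

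Of 35556 clusters, 21789 carried 1 symbol, 1621 several and 12146 none in the platform annotation; only those with 1 symbol were used, the brightest per gene. Rb1L/L was set against Rb1+/+ in R 4.3.3 by lmFit and eBayes of limma 3.58.1 (no block; adjustment over all 15462 tested genes; threshold 0.05), giving the log2 fold changes and their moderated SE. The procedure was tested on simulated data. Same-numbered arrays deviated together (correlations of 0.30, 0.24 and 0.30 over all tested genes). The labels state no block, and none is in the chosen fit. Values with the number as a block are therefore given where they change a call.

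Members and lists were chosen with earlier results of these data known. The naming rule took, per class and direction, the up to 8 members of smallest p among those called, filled to 4 by p, the precursor-cutting RNAs, hosts with at least 4 tested members (there were none) and the core proteins; the remaining members, their hosts and single genes of the lists were named after their values were seen. The reference (GRCm38.p6) gave names and which spans nest; the array annotation's own build is unstated, so no array coordinates are printed. Alternatives covered the block, variance moderation, array weights, normalization, filters, cluster choice and left-out arrays.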

Additional observations from a re-analysis of the deposited data

Results flagged for a closer look

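Clusters that name a snoRNA together with other genes lay outside the main measurement. They were looked at because they also stood above the Rb1+/+ level, so their counts are a description and add no support. Of 41 such clusters 11 were above the detection limit, 10 with distinct values. Of these 10, 6 rose and none fell (7.84% of all named clusters were higher), with a median log2 fold change of 0.50. The one shared by Snora24 and its host Snhg8 had the largest change, with log2 values of 8.19, 7.97 and 8.35 in Rb1L/L cultures and 6.16, 6.62 and 6.12 in Rb1+/+ cultures (1.87 ± 0.15 SE, limma adjusted p = 0.000916). It cannot be told from these values whether the snoRNA or the host carried the change. The cluster of Snord34 and Rpl13a rose by 0.75 and that of Snora43 and Snhg7 by 0.58. The 24 clusters of the Snord116 family, known as neuronal, were all below the limit.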

How the results depend on the processing

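With the replicate number as a block, 18 Snord and 12 Snora members were called higher, against 16 and 9 without it, and it ended no member's call. Under the stricter filter Snora41 was no longer tested. Host genes called higher were 4 in the chosen fit and 9 with trended variances. Read from the brightest host cluster within 30 cluster numbers of the snoRNA, they were 8. The microRNA median was -0.0427 without a filter. The sign turned for Snord85 with array weights (0.00647), median centring (0.00468) and quantile normalization (0.0113), for Snora7a with median centring (0.0138), and with quantile normalization for Tcp1 (-0.0132), Tpt1 (0.0193) and Ipo7 (-0.00618). The cause was not tested. With 1 array or 1 pair of arrays left out, Snord members higher were 7 to 15, Snora members higher 1 to 9, host genes higher 0 to 6, all genes called 92 to 1441 and the microRNA median -0.0936 to -0.0515. In the same fits the log2 fold change was -0.0257 to 0.153 for Snord55, -0.0853 to 0.0983 for Snord85, -0.115 to 0.892 for Snora44, -0.0304 to 0.0631 for Snora52, -0.0392 to 0.0112 for Snora7a, -0.137 to 0.0460 for Snora23, -0.0310 to 0.0544 for Rpl10, -0.172 to 0.112 for Rbmx, -0.0380 to 0.0674 for Tcp1, -0.0452 to 0.0142 for Tpt1, -0.0630 to 0.0902 for Ipo7, -0.000800 to 0.104 for Rpl23 and -0.0183 to 0.0837 for Nop56. Fits with fewer arrays have fewer residual degrees of freedom. With 3 arrays a genotype, small changes of dim clusters are the least certain.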

Other observations

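One further gene of the snoRNA biotype that the symbol rule does not take, DQ267102, had log2 values of 11.97, 12.15 and 12.01 in Rb1L/L cultures and 10.86, 11.29 and 10.65 in Rb1+/+ cultures (log2 fold change 1.11, limma adjusted p = 0.00481). It was chosen after its value was seen. Gm12238, the other such gene above the limit, had 0.15 (limma adjusted p = 0.242).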
